A study of Mus musculus with 12 samples.

Results

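The ionotropic glutamate receptor subunits are the pore-forming proteins of the AMPA, kainate and NMDA receptors. They were followed in sorted cells of the embryonic mouse cerebral cortex. The members were the genes named Gria1, Gria2, Gria3, Grik1, Grik2, Grik3, Grik4, Grin1, Grin2b and Grin2d, which are 10 of the 4859 genes in the table of protein-coding genes. These are 3 AMPA, 4 kainate and 3 NMDA receptor subunit genes. The table holds genes that had been selected as differentially expressed between these libraries, so its genes are not the whole transcriptome and a call in it is not independent of that selection.

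The study asked how early cortical neurons differentiate, with preplate and Cajal-Retzius neurons at the centre. Cortical cells of the transgenic line Tg(Ebf2-EGFP)FB58Gsat were sorted by FACS into Ebf2-EGFP+ and Ebf2-EGFP- cells on embryonic days E11.5, E13.5 or E15.5, and polyadenylated RNA was sequenced. There were 2 libraries for each population and stage, 12 in all, and values are FPKM (fragments scaled by transcript length and by the mapped total). These are written EGFP+ and EGFP- cells below. Both populations came from embryos that carry the reporter, and each library was made from cells pooled over several embryos. The EGFP follows the regulatory sequences of Ebf2, a transcription factor of early-born cortical neurons, so the Ebf2-EGFP+ cells are defined by reporter activity and not by a single cell type. At E11.5 they are mostly preplate neurons, the first postmitotic layer of the cortex, and by E15.5 Cajal-Retzius neurons of the marginal zone form a large part of them. The Ebf2-EGFP- cells are all other sorted cells, a mixture whose makeup changes with stage.

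Ionotropic glutamate receptors are ion channels built from subunits of the same receptor class. AMPA receptors carry most fast excitatory transmission, and the Gria2 subunit sets whether they pass calcium. Kainate receptors combine the low-affinity subunits Grik1, Grik2 and Grik3 with high-affinity subunits such as Grik4, and they are known to influence the movement of developing neurons and the release of transmitter. NMDA receptors need the glycine-binding subunit Grin1 together with a glutamate-binding subunit, of which Grin2b and Grin2d are the forms typical of the embryonic brain.

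The population labels were set beside marker genes. All 8 Cajal-Retzius markers (Reln, Trp73, Calb2, Ebf2, Ebf3, Lhx1, Lhx5 and Nhlh2) were higher in EGFP+ cells at each stage. Ebf2 is the gene of the sorted reporter, and the study picked Nhlh2 from these same libraries for its higher level in EGFP+ cells. Neither is therefore an independent check of the labels. Their summed level was 425 and 377 FPKM in the EGFP+ libraries of E11.5, against 13.3 and 12.02 FPKM in the EGFP- libraries. At E13.5 it was 205 and 256 FPKM against 12.8 and 13.4 FPKM, and between these stages 7 of the 8 fell in EGFP+ cells. At E15.5 it was 564 and 1150 FPKM against 24.0 and 16.5 FPKM, so the EGFP+ libraries of that stage differed from each other in these markers. Reln, which encodes the secreted protein reelin, had the highest mean of the list over the 12 libraries, with 399 and 925 FPKM in the E15.5 EGFP+ libraries.

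The level of neuronal markers in the EGFP- cells moved with stage. The 8 pan-neuronal markers, led by the tubulin gene Tubb3, summed to 669 and 727 FPKM at E11.5, 1224 and 1367 FPKM at E13.5, then 2168 and 2694 FPKM at E15.5 in EGFP- cells. In EGFP+ cells they summed to 3631 and 3159 FPKM, then 2677 and 2482 FPKM, then 3247 and 3507 FPKM. The gap between the populations in neuronal markers was therefore widest at E11.5 and narrowest at E15.5.

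Markers of other cells also differed between the sorted populations. The 8 radial glia markers, led by Vim, summed to 1624 and 1341 FPKM in EGFP- cells at E11.5 and to 430 and 406 FPKM in EGFP+ cells. At E15.5 these sums were 817 and 456 FPKM against 152 and 89.0 FPKM. The 8 ganglionic eminence and interneuron markers, led by Dlx2 in the mean over the 12 libraries, summed to 177 and 234 FPKM in EGFP- cells at E11.5 and to 9.55 and 12.7 FPKM in EGFP+ cells. The EGFP- libraries of E11.5 also held erythroid RNA, with 741 and 1598 FPKM summed over the 2 listed erythroid genes, Hbb-y and Alas2. In bulk libraries such as these, fewer cells of a type and less RNA per cell cannot be told apart, and the part of these cell types in the results on the subunits was not tested.

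The remaining marker lists are given as EGFP+ against EGFP- libraries at E11.5, then at E13.5, then at E15.5. Cell cycle markers summed to 184 and 162 against 534 and 465 FPKM, then 69.2 and 41.4 against 349 and 229 FPKM, then 7.35 and 7.39 against 93.4 and 49.7 FPKM. Intermediate progenitor markers summed to 239 and 223 against 63.9 and 69.4 FPKM, then 131 and 95.1 against 368 and 276 FPKM, then 38.3 and 22.2 against 248 and 144 FPKM. Cortical plate markers summed to 188 and 245 against 55.9 and 58.5 FPKM, then 943 and 952 against 469 and 590 FPKM, then 1035 and 674 against 897 and 719 FPKM. Cell cycle markers were thus higher in EGFP- libraries at all 3 stages, and cortical plate markers overlapped between the populations at E15.5. The intermediate progenitor sum of E11.5 was mostly Eomes in EGFP+ cells (142 and 139 against 8.08 and 11.7 FPKM), with 2 of the 4 markers called, while Btg2 was at 15.2 and 12.5 against 16.6 and 16.4 FPKM. Subplate markers summed to 124 and 116 against 25.7 and 24.3 FPKM, then 62.6 and 60.2 against 47.7 and 47.9 FPKM, then 74.1 and 36.4 against 52.3 and 28.1 FPKM. At E11.5 this sum was mostly Nxph4 in EGFP+ cells (114 and 104 against 1.57 and 1.38 FPKM), while Ctgf (0.367 and 0.238 against 5.35 and 4.53 FPKM) and Lpar1 (2.001 and 2.69 against 14.1 and 12.9 FPKM) were lower there. At E13.5 Nxph4 alone was higher (58.1 and 57.0 against 18.4 and 24.7 FPKM), and the other 3 of the 4 markers were lower. Meningeal markers summed to 41.9 and 47.2 against 129 and 110 FPKM, then 1.69 and 1.06 against 5.57 and 3.77 FPKM, then 0.893 and 2.77 against 3.63 and 2.75 FPKM. Endothelial markers summed to 0.322 and 0.536 against 7.19 and 4.39 FPKM, then 2.32 and 0.692 against 1.77 and 2.94 FPKM, then 0.483 and 0.601 against 2.14 and 2.64 FPKM. Meningeal and endothelial RNA was low in every library after E11.5. Of the 5 microglial markers, Aif1 alone was in the table, so the others could not be looked at. Aif1 was at 0.272 and 0.359 against 0.131 and 0.162 FPKM, then 0.933 and 0.673 against 0.111 and 0.188 FPKM. At E15.5 it was at 2.92 and 2.87 against 0.626 and 0.773 FPKM.

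**Figure D1:**
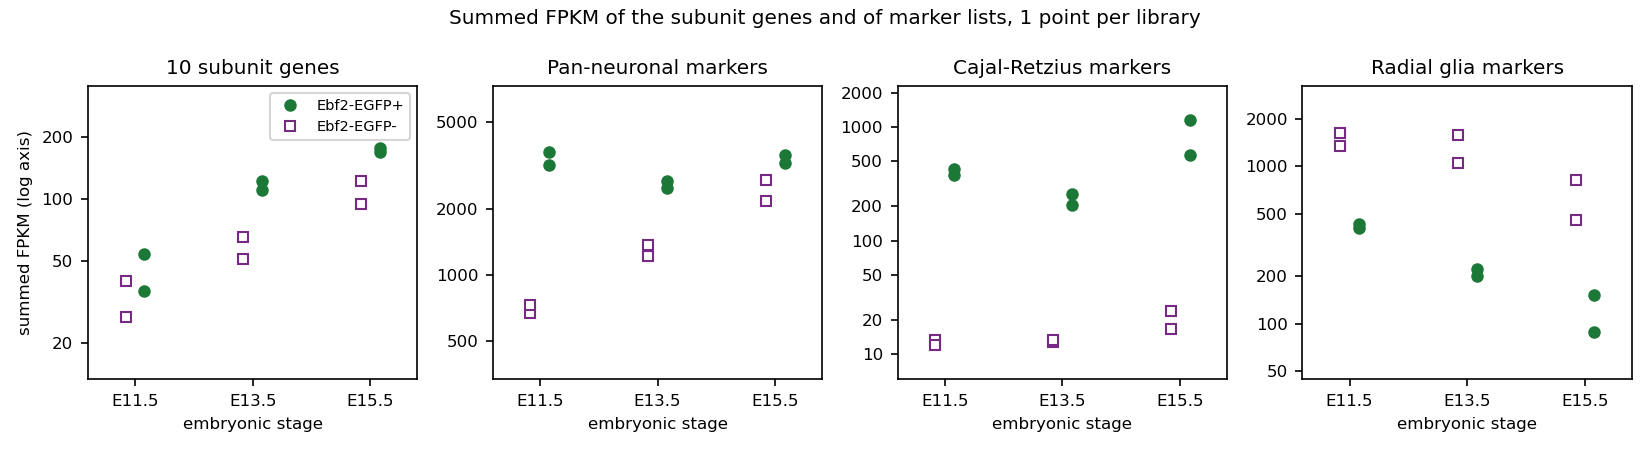
Summed FPKM (log axis) of the 10 subunit genes and of the pan-neuronal, Cajal-Retzius and radial glia marker lists in each of the 12 libraries, by embryonic stage; filled circles are EGFP+ and open squares EGFP- libraries. The Cajal-Retzius sum lay between 205 and 1150 FPKM in EGFP+ libraries and between 12.02 and 24.0 FPKM in EGFP- libraries.

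The summed level of the subunit genes was higher at each later stage in both populations by group means. It was 35.8 and 53.9 FPKM in EGFP+ cells at E11.5, 110 and 122 FPKM at E13.5, then 176 and 169 FPKM at E15.5. In EGFP- cells it was 26.9 and 40.1 FPKM, then 51.0 and 65.3 FPKM, then 94.9 and 122 FPKM. The populations overlapped at E11.5 and stood apart at the later stages, with the EGFP+ libraries higher. Between libraries of the same number, EGFP+ was the higher at E11.5 as well. No test was run on this sum.

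Set against the neuronal markers, the course differed between the populations. The subunit genes amounted to 40.2 and 55.2 FPKM per 1000 FPKM of pan-neuronal markers in EGFP- cells at E11.5, 41.6 and 47.7 at E13.5, then 43.8 and 45.2 at E15.5. In EGFP+ cells the same ratio was 9.86 and 17.1 at E11.5, 41.2 and 49.2 at E13.5, then 54.2 and 48.3 at E15.5. Grik3 alone gave 22.8 and 28.2 of the ratio in the EGFP- libraries of E11.5 and 0.414 and 0.619 in the EGFP+ libraries. Without Grik3 the ratio was 17.4 and 27.0 in EGFP- and 9.45 and 16.5 in EGFP+ cells at E11.5, so both populations were below their later levels of 37.8 and 41.5 against 34.2 and 37.8 at E13.5, then 38.6 and 41.5 against 40.1 and 38.5 at E15.5. At E11.5 the ratios of Gria3, of all 4 kainate receptor genes and of Grin2d were higher in EGFP- cells without overlap, that of Grin2b was lower, and those of Gria1, Gria2 and Grin1 overlapped. The ratio and the version without Grik3 were chosen after the values had been seen and were not tested.

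Between the populations, differences were tested with limma on log2(FPKM + 1) over all 4859 genes, and a gene was called at an adjusted p under 0.05. All log2 differences are on that scale, which understates the change of genes with low FPKM, and the p-values measure the spread between these libraries. At E11.5, 7 of the 10 subunits were higher in EGFP+ cells, where 36.8% of all genes were, and 1 was lower, where 44.9% of all genes were. At E13.5, 5 were higher against 32.1% of all genes, and 1 was lower against 43.5%. At E15.5, 5 were higher against 25.8% of all genes, and 3 were lower against 31.6%. The median difference over the subunits was 0.91, 0.72 and 0.69 log2 at the 3 stages, beside -0.19, -0.19 and -0.11 over all genes.

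The libraries of the populations did not overlap for 8 of the subunits at E11.5, 7 at E13.5 and 9 in E15.5 libraries. Among all genes this held for 92.6%, 88.9% and 79.3%, so separation of the libraries was common in this table. Grin1 and Grin2b were higher in EGFP+ cells at every stage. Grik3 was called at every stage too, but its direction turned over after E11.5. With Grik2 and Grin2d, 3 subunits were called in both directions at different stages. Of all genes, 14.6% were higher in EGFP+ cells at every stage and 7.78% were called in both directions. Rescaling the libraries by the median of ratios shifted the median of all genes toward EGFP+ cells by 0.19 log2 at E11.5, 0.19 at E13.5, then 0.13 at E15.5, and no subunit called here changed direction under it. After rescaling, 40.5% of all genes were higher and 40.8% lower at E11.5, 39.1% and 36.1% at E13.5, then 32.9% and 27.2% at E15.5.

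**Figure D2:**
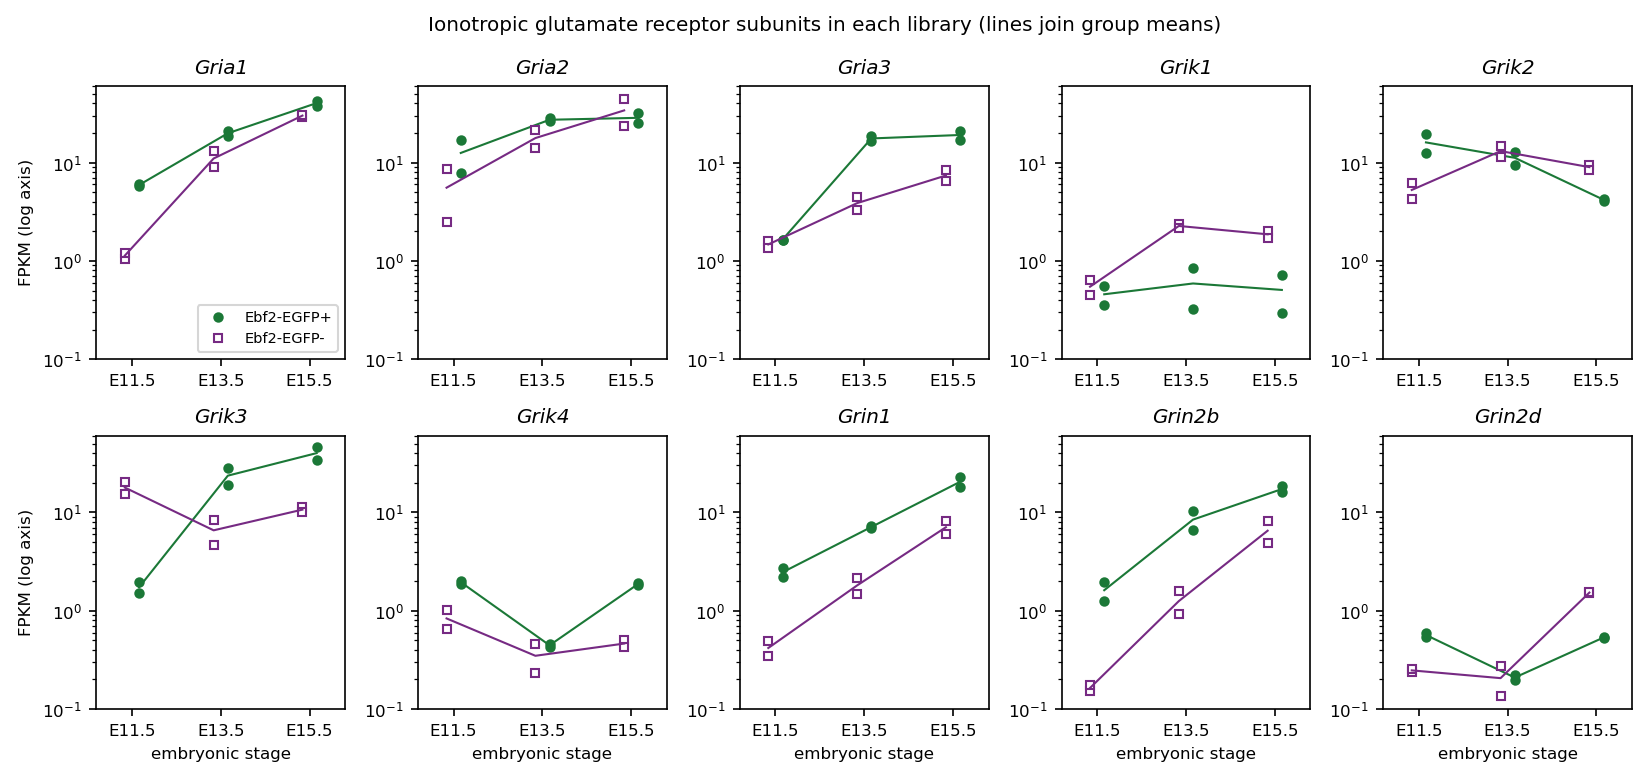
FPKM of each subunit gene (log axis) in every library by embryonic stage; filled circles are EGFP+ libraries, open squares EGFP- libraries, and lines join group means (n = 2). The lines of Grik3 cross between E11.5, where EGFP+ libraries were at 1.50 and 1.95 FPKM, and E13.5, where they were at 18.9 and 28.4 FPKM.

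Gria1 encodes an AMPA receptor subunit that can form calcium-permeable channels by itself. Its level was 6.03 and 5.79 FPKM in EGFP+ cells at E11.5 against 1.06 and 1.21 FPKM in EGFP- cells. It was 18.8 and 20.9 FPKM against 8.94 and 13.1 FPKM at E13.5, then 42.6 and 37.8 FPKM against 29.3 and 30.7 FPKM at E15.5. The EGFP+ libraries were the higher ones at every stage, without overlap. By limma the log2 difference was 1.70 at E11.5 (SE 0.17, adjusted p = 4.59e-06), 0.82 at E13.5 (SE 0.17, adjusted p = 0.00130), then 0.41 at E15.5 (SE 0.17, adjusted p = 0.0628), where it missed the threshold. The E15.5 difference passed after rescaling by the median of ratios (0.61, adjusted p = 0.0198) and with a replicate block (adjusted p = 0.0181).

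Gria2 encodes the subunit that keeps calcium out of AMPA receptors once its transcript is edited. It was at 7.90 and 17.1 FPKM in EGFP+ cells at E11.5 and at 2.49 and 8.61 FPKM in EGFP- cells. At E13.5 the values were 28.2 and 26.3 FPKM against 14.1 and 21.4 FPKM, and at E15.5 they were 25.2 and 31.8 FPKM against 23.5 and 44.3 FPKM. The libraries overlapped at E11.5, where EGFP+ was the higher between libraries of the same number, and at E15.5, and Gria2 had the widest spread between libraries of a group among the subunits. This gave a log2 difference of 1.13 at E11.5 (SE 0.45, adjusted p = 0.0361), 0.62 at E13.5 (adjusted p = 0.232), then -0.18 at E15.5 (adjusted p = 0.745). The E11.5 call was lost without the first EGFP- library (0.40, adjusted p = 0.419), without the second EGFP+ library (0.62, adjusted p = 0.301) and in a fit of the E11.5 libraries alone (adjusted p = 0.0741). Without the second EGFP- library it was 1.86. The E13.5 difference was called with a replicate block (adjusted p = 0.00877) and in a fit of the E13.5 libraries alone (adjusted p = 0.0391).

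Gria3, a further AMPA receptor subunit encoded on the X chromosome, did not differ detectably at first. Its level at E11.5 was 1.65 and 1.64 FPKM in EGFP+ cells and 1.60 and 1.34 FPKM in EGFP- cells. It was 16.6 and 18.5 FPKM against 3.26 and 4.47 FPKM at E13.5, then 21.1 and 17.0 FPKM against 6.45 and 8.32 FPKM at E15.5. The EGFP+ libraries were all above the EGFP- libraries at each stage, by little at E11.5. The log2 difference was 0.10 at E11.5 (adjusted p = 0.633, 95% interval -0.32 to 0.52), 1.94 at E13.5 (SE 0.19, adjusted p = 8.98e-06), then 1.26 at E15.5 (SE 0.19, adjusted p = 0.000210).

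RefSeq promoter sequences (build GRCm38.p6) were found for 6 of the 10 subunits, namely Gria2, Grik2, Grik3, Grik4, Grin1 and Grin2d. Below are the 250 bases before the start used in the promoter table for Grik3 (chr4:125490446-125490695, plus strand), Grik4 (chr9:42944372-42944621, minus strand) and Grik2 (chr10:49788755-49789004, minus strand), the 3 kainate receptor genes with an entry. The gene as placed by GENCODE includes 122 of these bases for Grik4, 12 for Grik2 and 0 for Grik3. Each reads 5′ to 3′ on the strand of its gene, and capitals mark the GC box GGGCGG on either strand, a sequence known to be bound by Sp1-type zinc finger factors.
Grik3: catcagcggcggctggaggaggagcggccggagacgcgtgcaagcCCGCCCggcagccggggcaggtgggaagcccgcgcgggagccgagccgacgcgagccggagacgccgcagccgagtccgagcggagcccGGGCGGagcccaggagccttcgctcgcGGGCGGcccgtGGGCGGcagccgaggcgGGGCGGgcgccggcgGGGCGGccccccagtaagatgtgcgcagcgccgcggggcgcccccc
Grik4: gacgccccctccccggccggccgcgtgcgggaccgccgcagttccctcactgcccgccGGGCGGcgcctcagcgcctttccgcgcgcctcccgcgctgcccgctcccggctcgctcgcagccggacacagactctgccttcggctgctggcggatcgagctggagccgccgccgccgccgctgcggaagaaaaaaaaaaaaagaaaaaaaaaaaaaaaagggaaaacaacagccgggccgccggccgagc
Grik2: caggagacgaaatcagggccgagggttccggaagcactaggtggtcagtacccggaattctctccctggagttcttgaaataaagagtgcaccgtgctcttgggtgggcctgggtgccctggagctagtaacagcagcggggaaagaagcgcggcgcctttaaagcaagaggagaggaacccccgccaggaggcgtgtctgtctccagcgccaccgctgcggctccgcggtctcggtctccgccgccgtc
The Grik3 promoter held 6 GC boxes, the Grik4 promoter 1 and the Grik2 promoter 0. At least 1 GC box stood in 32.7% of the 32851 promoters of this length, and 6 or more stood in 0.886%. Grik3 had a GC content of 82.0%, above that of 99.3% of promoters, beside 69.6% for Grik4 and 62.8% for Grik2. A palindrome known to be bound by EBF factors (TCCC, any 2 bases, GGGA) was in 0.779% of promoters and in 0 of the 6, and CACGTG was in 6.02% of promoters and in Grin1 alone. TGACGTCA and TATAAA, in 1.55% and 12.4% of promoters, were in 0 of the 6. All 250 bases of the Grin2d entry lie inside the gene as placed by GENCODE, against 0 for Gria2 and Grin1. The motifs were searched on both strands and chosen after sequences had been looked at, and a match describes the letters only.

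Grik3, a low-affinity kainate receptor subunit, was called in opposite directions at E11.5 and at the later stages. At E11.5 it was at 1.50 and 1.95 FPKM in EGFP+ cells and at 15.3 and 20.5 FPKM in EGFP- cells. At E13.5 it was at 18.9 and 28.4 FPKM against 4.69 and 8.45 FPKM, and at E15.5 at 45.7 and 34.4 FPKM against 11.3 and 10.04 FPKM. The EGFP- libraries were the high ones at E11.5 and the EGFP+ libraries at both later stages, with no overlap at any stage. By limma the log2 difference was -2.78 at E11.5 (SE 0.27, adjusted p = 3.11e-06), 1.72 at E13.5 (SE 0.27, adjusted p = 0.000150), then 1.80 at E15.5 (SE 0.27, adjusted p = 0.000182). It kept its direction and its call without any 1 library and under every other alternative at all 3 stages. The EGFP- libraries of E11.5, where Grik3 was high, were also those with the highest sums of erythroid, interneuron, meningeal, cell cycle and endothelial markers, whose part was not tested.

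Grik2, the kainate receptor subunit long known as GluR6, ran the other way. It was at 12.5 and 19.6 FPKM in EGFP+ cells at E11.5 and at 4.28 and 6.25 FPKM in EGFP- cells. At E13.5 it was at 12.9 and 9.49 FPKM against 14.7 and 11.49 FPKM, and at E15.5 at 4.30 and 4.07 FPKM against 9.50 and 8.46 FPKM. The EGFP+ libraries were above the others at E11.5, among them at E13.5, then below them at E15.5. Between libraries of the same number, EGFP+ was the lower at E13.5. This gave a log2 difference of 1.43 at E11.5 (SE 0.24, adjusted p = 0.000158), -0.21 at E13.5 (adjusted p = 0.424, 95% interval -0.73 to 0.31), then -0.94 at E15.5 (SE 0.24, adjusted p = 0.00547). The 4 intermediate progenitor markers, led by Eomes in the mean over the 12 libraries, had 2 higher and 2 not called at E11.5 and all 4 lower at E13.5 and at E15.5. They summed to 239 and 223 against 63.9 and 69.4 FPKM, then 131 and 95.1 against 368 and 276 FPKM, then 38.3 and 22.2 against 248 and 144 FPKM, and their part in the Grik2 difference was not tested.

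Grik4 encodes a high-affinity subunit that needs a low-affinity partner to form a channel. Its level was 1.89 and 2.01 FPKM in EGFP+ cells at E11.5, 0.460 and 0.430 FPKM at E13.5, then 1.92 and 1.83 FPKM at E15.5. In EGFP- cells it was 1.02 and 0.645 FPKM, then 0.462 and 0.234 FPKM, then 0.502 and 0.425 FPKM. It was low in all libraries, dipped at E13.5 in EGFP+ cells, and overlapped between the populations at that stage. The log2 difference was 0.69 at E11.5 (SE 0.13, adjusted p = 0.000493), 0.11 at E13.5 (adjusted p = 0.487), then 0.98 at E15.5 (SE 0.13, adjusted p = 0.000108).

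Grik1, a low-affinity subunit found on many interneurons, was low in EGFP+ cells throughout. It was at 0.359 and 0.556 FPKM there at E11.5, against 0.453 and 0.640 FPKM in EGFP- cells. At E13.5 it was at 0.854 and 0.325 FPKM against 2.37 and 2.16 FPKM, and at E15.5 at 0.298 and 0.715 FPKM against 2.01 and 1.72 FPKM. The libraries overlapped at E11.5, where EGFP+ was the lower between libraries of the same number, and stood apart afterwards, with EGFP- cells higher. By limma the log2 difference was -0.09 at E11.5 (adjusted p = 0.671), -1.06 at E13.5 (SE 0.18, adjusted p = 0.000289), then -0.94 at E15.5 (SE 0.18, adjusted p = 0.00106). The EGFP- libraries also held more interneuron marker RNA at these stages, with 49.4 and 53.9 FPKM against 1.93 and 1.60 FPKM at E13.5, then 85.6 and 74.6 FPKM against 2.69 and 3.42 FPKM at E15.5, and its part in the Grik1 difference was not tested. At E11.5, where Grik1 was not called, these sums were 177 and 234 FPKM against 9.55 and 12.7 FPKM.

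Grin1 encodes the subunit that every NMDA receptor needs. It was at 2.19 and 2.73 FPKM in EGFP+ cells at E11.5 against 0.349 and 0.487 FPKM in EGFP- cells. At E13.5 it was at 6.92 and 7.28 FPKM against 1.46 and 2.15 FPKM, and at E15.5 at 18.2 and 22.8 FPKM against 5.9997 and 8.13 FPKM. The EGFP+ libraries were higher at each stage and the groups did not overlap. The log2 difference was 1.28 at E11.5 (SE 0.20, adjusted p = 9.85e-05), 1.54 at E13.5 (SE 0.20, adjusted p = 4.91e-05), then 1.42 at E15.5 (SE 0.20, adjusted p = 0.000133). With a pseudocount of 0.1 it was 2.31, 1.94 and 1.53 for Grin1 at these stages, so its course depended on the pseudocount.

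Grin2b encodes a glutamate-binding NMDA receptor subunit that is abundant before birth. Its level was 1.26 and 1.98 FPKM in EGFP+ cells at E11.5 against 0.154 and 0.174 FPKM in EGFP- cells. It was 6.58 and 10.3 FPKM against 0.923 and 1.58 FPKM at E13.5, then 15.9 and 18.6 FPKM against 4.88 and 8.14 FPKM at E15.5. As with Grin1, all EGFP+ libraries lay above the EGFP- libraries of their stage. This gave a log2 difference of 1.15 at E11.5 (SE 0.26, adjusted p = 0.00153), 2.05 at E13.5 (SE 0.26, adjusted p = 4.36e-05), then 1.31 at E15.5 (SE 0.26, adjusted p = 0.00136). With a pseudocount of 0.1 it was 2.67 for Grin2b at E11.5 and at E13.5, then 1.43 at E15.5.

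Grin2d encodes an NMDA receptor subunit with slow channel closure, known from embryonic brain and from interneurons. It was at 0.588 and 0.545 FPKM in EGFP+ cells at E11.5 against 0.236 and 0.258 FPKM in EGFP- cells. At E13.5 it was at 0.198 and 0.220 FPKM against 0.136 and 0.276 FPKM, and at E15.5 at 0.542 and 0.526 FPKM against 1.52 and 1.54 FPKM. It went from higher in EGFP+ cells at E11.5, through overlapping libraries at E13.5, to lower at E15.5. The log2 difference was 0.33 (SE 0.10, adjusted p = 0.00894), 0.01 (adjusted p = 0.960) and -0.72 (SE 0.10, adjusted p = 0.000108) at the 3 stages. Exons of Grin1, Grin2b and Grin2d overlap those of a gene on the opposite strand, and since counting by strand is not stated, the values of these 3 genes may include reads of that gene.

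**Figure D3:**
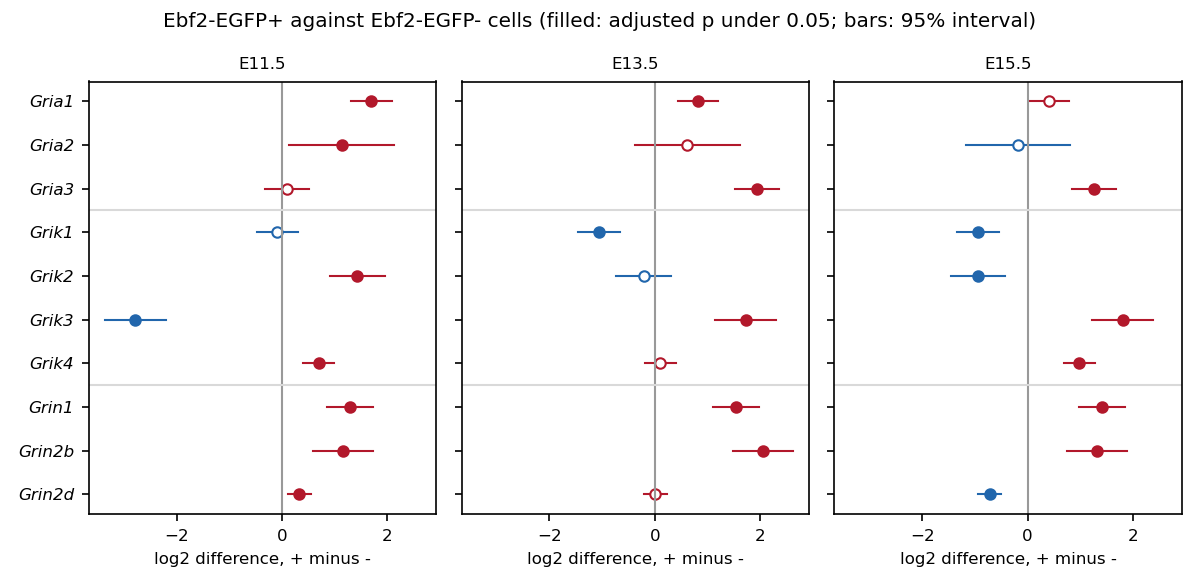
Log2 difference of FPKM + 1 between EGFP+ and EGFP- cells for each subunit at each stage (n = 2 libraries a group); points are estimates, bars 95% intervals, filled points passed an adjusted p under 0.05, red is higher and blue lower in EGFP+ cells. Grik3 moved from -2.78 (E11.5) to 1.72 (E13.5), and Grik2 from 1.43 (E11.5) to -0.94 (E15.5).

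Whether a population difference itself changed between stages was tested as an interaction. From E11.5 to E13.5 it changed for 6 of the 10 subunits, where 35.2% of all genes changed in either direction. The difference moved toward EGFP+ cells for Grik3, by 4.50 log2 (SE 0.38, adjusted p = 1.30e-05), and for Gria3, by 1.84 (SE 0.27, adjusted p = 0.000414). It moved toward EGFP- cells for Grik2 (-1.64, SE 0.34, adjusted p = 0.00327), Grik1 (-0.97, SE 0.26, adjusted p = 0.0125), Gria1 (-0.88, SE 0.25, adjusted p = 0.0170) and Grik4 (-0.59, SE 0.19, adjusted p = 0.0322). All 4 kainate receptor genes and 0 of the 3 NMDA receptor genes were among these. Of all 4859 genes, 757 moved toward EGFP+ and 952 toward EGFP- cells. Among the marker lists, 6 of the 8 pan-neuronal, 6 of the 8 Cajal-Retzius and all 4 intermediate progenitor markers moved toward EGFP- cells. So did 2 of the 4 subplate and 2 of the 6 cortical plate markers. Moves toward EGFP+ cells were called for 4 of the 8 interneuron, 3 of the 6 meningeal and 2 of the 3 endothelial markers. They were also called for 1 of the 2 erythroid and 1 of the 6 cortical plate markers and for the microglial Aif1. No radial glia or cell cycle marker was called. The part of these cell types in the interaction was not tested.

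The calls for Grik3, Gria3 and Grik2 held without any 1 library. The call for Gria1 was lost after rescaling by the median of ratios (-0.70, adjusted p = 0.0765). It was also lost without the first EGFP- (-0.83) or first EGFP+ library of E11.5 (-0.86), and without the second EGFP- (-0.63) or first EGFP+ library of E13.5 (-0.81). The call for Grik1 was lost without the first EGFP- (-0.89) or second EGFP+ library of E11.5 (-0.87) or the second EGFP+ library of E13.5 (-0.73), and the call for Grik4 without the second EGFP- library of E11.5 (-0.44), the first of E13.5 (-0.47), either EGFP+ library of E11.5 (-0.62 and -0.56) or either of E13.5 (-0.60 and -0.57). With a pseudocount of 0.1, Grik1 (adjusted p = 0.0520) and Grik4 (adjusted p = 0.166) also missed the threshold. The Grin2b change of 0.90 missed it (adjusted p = 0.0805) but passed with a replicate block (adjusted p = 0.00781), in a fit of the 4 groups alone (adjusted p = 0.0431) and without the first EGFP+ library of E13.5 (1.19, adjusted p = 0.0407). With a pseudocount of 0.1 the Grin2b change was -0.0025 (adjusted p = 0.998).

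From E13.5 to E15.5 the population difference changed for 2 of the 10 subunits, where 12.6% of all genes changed. It moved toward EGFP+ cells for Grik4, by 0.87 (SE 0.19, adjusted p = 0.0168), and toward EGFP- cells for Grin2d, by -0.73 (SE 0.14, adjusted p = 0.0108). The Grik4 call was lost without the first EGFP- (0.75, adjusted p = 0.0729) or second EGFP+ library of E13.5 (0.86, adjusted p = 0.0574) and with a pseudocount of 0.1 (adjusted p = 0.0557). With a replicate block 6 subunits were called, where 36.5% of all genes were under that block, the added ones being Gria2 (-0.80, adjusted p = 0.0344), Gria3 (-0.68, adjusted p = 0.0435), Grik2 (-0.73, adjusted p = 0.0112) and Grin2b (-0.74, adjusted p = 0.0296).

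Within EGFP+ cells, stage changes were mostly upward. From E11.5 to E13.5, 6 of the 10 subunits rose, where 21.8% of all genes did, and 2 fell, where 36.1% did. Over the same step 7 of the 8 Cajal-Retzius markers and all 5 cell cycle markers fell and all 6 cortical plate markers rose in these cells, with sums as given above, and their part in the subunit changes was not tested. From E13.5 to E15.5, 6 rose against 24.6% of all genes, and 1 fell against 17.3%. Over the whole span from E11.5 to E15.5, 6 rose against 33.3% of all genes, and 1 fell against 42.1%. In the step from E13.5 to E15.5, 7 of the 8 Cajal-Retzius markers rose, and all 5 cell cycle and all 4 intermediate progenitor markers fell. Their part in the subunit changes was not tested either.

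All 3 AMPA receptor genes rose in the first step in these cells, and 1 of them, Gria1, also in the second. The steps were not compared by a test. Gria1 rose by 1.59 log2 from E11.5 to E13.5 (SE 0.17, adjusted p = 2.04e-05) and by 0.98 from E13.5 to E15.5 (SE 0.17, adjusted p = 0.00115). Gria3 rose by 2.81 (SE 0.19, adjusted p = 7.45e-07) and then changed by 0.11 (adjusted p = 0.697). Gria2 rose by 1.15 (SE 0.45, adjusted p = 0.0470) and then changed by 0.06 (adjusted p = 0.940). The first-step rise of Gria2 was no longer called without the first EGFP+ library of E11.5 (0.64, adjusted p = 0.340) or either EGFP+ library of E13.5 (1.10 and 1.20), with a pseudocount of 0.1 (adjusted p = 0.0561) or without a variance trend (adjusted p = 0.0531), and its rise over the whole span (1.21, adjusted p = 0.0299) not without the first library of E11.5 (0.69) or either library of E15.5 (1.37 and 1.04).

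The kainate receptor genes moved in different directions in EGFP+ cells. Grik3 rose by 3.15 log2 from E11.5 to E13.5 (SE 0.27, adjusted p = 3.47e-06), the steepest step of any subunit, and by 0.75 from E13.5 to E15.5 (SE 0.27, adjusted p = 0.0408). Grik2 changed by -0.47 (adjusted p = 0.113) and then fell by 1.22 (SE 0.24, adjusted p = 0.00197). Grik4 fell by 1.03 (SE 0.13, adjusted p = 7.26e-05) and rose by 0.99 (SE 0.13, adjusted p = 0.000256). Grik1 did not pass in either step (0.11 and -0.07). The later rise of Grik3 was not called without the first EGFP+ library of E13.5 (0.47, adjusted p = 0.299) or of E15.5 (0.55, adjusted p = 0.229), and the early change of Grik2 was called without the first library of E11.5 (-0.77, adjusted p = 0.0366) and shrank to -0.16 without the second of E11.5 and to -0.265 without the second of E13.5.

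Among the NMDA receptor genes, Grin1 and Grin2b rose in both steps in EGFP+ cells. Grin1 rose by 1.23 log2 (SE 0.20, adjusted p = 0.000341) and then by 1.40 (SE 0.20, adjusted p = 0.000346). Grin2b rose by 1.84 (SE 0.26, adjusted p = 0.000140) and then by 0.98 (SE 0.26, adjusted p = 0.0116). Grin2d fell by 0.37 (SE 0.10, adjusted p = 0.00733) and then rose by 0.34 (SE 0.10, adjusted p = 0.0162). The second-step rise of Grin2b was not called without the first library of E13.5 (0.69, adjusted p = 0.117) or the second of E15.5 (0.87, adjusted p = 0.0650). That of Grin2d was not called without either library of E13.5 (0.33 and 0.36) or the first of E15.5 (0.34).

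Within EGFP- cells, 7 of the 10 subunits rose from E11.5 to E13.5, where 26% of all genes did, and 2 fell, where 33.5% did. From E13.5 to E15.5, 6 rose against 28.8% of all genes, and 0 fell against 34.8%. Over the whole span 8 rose against 37.7% of all genes, and 2 fell against 47.6%. Over the first step 7 of the 8 pan-neuronal, all 4 intermediate progenitor and 5 of the 6 cortical plate markers also rose in these cells. In the same step 7 of the 8 interneuron and all 6 meningeal markers fell, and the erythroid sum went from 741 and 1598 FPKM to 12.5 and 10.5 FPKM. From E13.5 to E15.5, 7 of the 8 pan-neuronal markers rose, and 7 of the 8 radial glia and all 5 cell cycle markers fell. The part of these cell types in the subunit changes was not tested.

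In EGFP- cells Gria1 rose by 2.47 log2 in the first step (SE 0.17, adjusted p = 5.85e-07) and by 1.39 in the second (SE 0.17, adjusted p = 0.000202). Grin1 rose by 0.98 (adjusted p = 0.00159) and 1.52 (adjusted p = 0.000233), and Grin2b by 0.94 (adjusted p = 0.00956) and 1.72 (adjusted p = 0.000404). At E11.5 the means of Grin1 and Grin2b in EGFP- cells were 0.418 and 0.164 FPKM, where log2(FPKM + 1) understates a change. Which step was the larger was therefore not read from these values. Gria3 rose by 0.97 (adjusted p = 0.00123) and 0.79 (adjusted p = 0.00437). Grin2d changed by -0.05 in the first step (adjusted p = 0.672) and rose by 1.07 in the second (SE 0.10, adjusted p = 7.16e-05).

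Gria2 rose by 1.67 log2 in the first step (SE 0.45, adjusted p = 0.00838) and changed by 0.86 in the second (adjusted p = 0.116). Grik1 and Grik2 rose in the first step, by 1.08 (adjusted p = 0.000406) and 1.18 (adjusted p = 0.00143). Grik3 fell by 1.35 (SE 0.27, adjusted p = 0.00125) and then rose by 0.67 (SE 0.27, adjusted p = 0.0454), and Grik4 fell by 0.44 (SE 0.13, adjusted p = 0.0144). So Grik3 fell in EGFP- cells over the step in which it rose in EGFP+ cells.

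Several of these stage calls rested on single EGFP- libraries. The first-step call of Gria2 was lost without the first library of E11.5 (0.93) or the second of E13.5 (1.38), that of Grin2b without the same libraries (0.93 and 0.72), and that of Grik4 likewise (-0.29 and -0.32). The second-step call of Grik3 was lost without the first library of E13.5 (0.30) or either of E15.5 (0.59 and 0.75) and in a fit of the compared groups alone (adjusted p = 0.0954), and without the second library of E13.5 the rise was 1.03. Gria2 was called in the second step without the first library of E15.5 (1.30, adjusted p = 0.0440). Over the whole span, Grik2 (0.69, adjusted p = 0.0172) was not called without the first library of E11.5 (0.46) or of E15.5 (0.61), Grik3 (-0.68, adjusted p = 0.0308) not without the second of E11.5 (-0.48) or of E15.5 (-0.61) or after rescaling (-0.40, adjusted p = 0.209), and Grik4 (-0.32, adjusted p = 0.0424) not without the first of E11.5 (-0.17) or either of E15.5 (-0.36 and -0.28), after rescaling (-0.19, adjusted p = 0.158), with a random replicate block (adjusted p = 0.0632), without a variance trend (adjusted p = 0.0629) or in a fit of the compared groups alone (adjusted p = 0.0554).

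**Figure D4:**
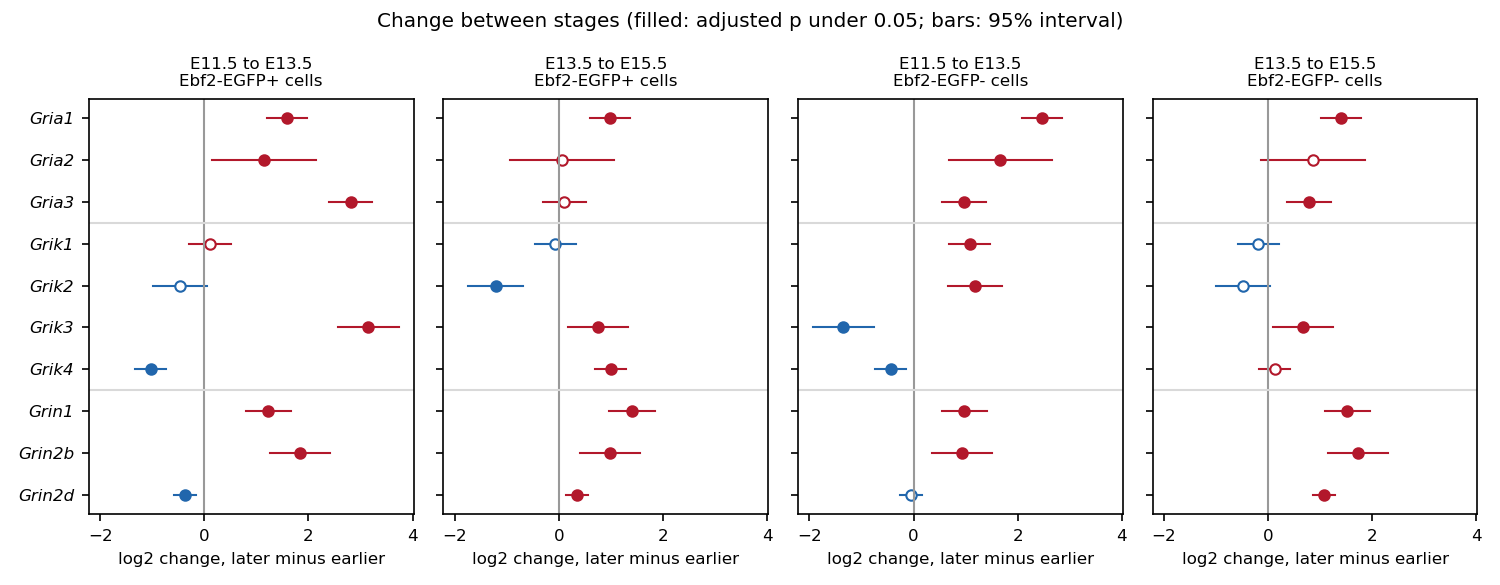
Log2 change of FPKM + 1 between neighbouring stages for each subunit within EGFP+ and within EGFP- cells (n = 2 libraries a group); points are estimates, bars 95% intervals, filled points passed an adjusted p under 0.05, red is a rise and blue a fall. Grik3 rose by 3.15 and fell by 1.35 over the same first step in the respective populations.

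The order of the levels within each group changed with stage. In EGFP- cells of E11.5, Grik3 led with a mean of 17.9 FPKM and stood clear of Gria2 at 5.55 FPKM, which did not differ from Grik2 at 5.26 FPKM beyond the spread of the libraries. In EGFP+ cells of E11.5, Grik2 at 16.0 FPKM and Gria2 at 12.5 FPKM overlapped, followed by Gria1 at 5.91 FPKM. At E13.5 Gria2 led in both populations, at 27.2 FPKM in EGFP+ and 17.7 FPKM in EGFP- cells, and it overlapped with the next gene in each, Grik3 and Grik2. At E15.5 Gria1 at 40.2 FPKM and Grik3 at 40.0 FPKM overlapped at the top in EGFP+ cells, while Gria2 at 33.9 FPKM and Gria1 at 30.0 FPKM overlapped at the top in EGFP- cells.

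The share of the receptor classes in the summed FPKM followed from these levels. Kainate receptor genes made up 78.1% and 69.9% of the sum in EGFP- cells at E11.5, 43.5% and 34.2% at E13.5, then 24.5% and 17.0% at E15.5. In EGFP+ cells they made up 45.2% and 44.7%, then 30.0% and 31.6%, then 29.7% and 24.2%. The kainate share was lower in each later stage within both populations, with overlap between the E13.5 and E15.5 libraries in neither. AMPA receptor genes made up 43.5% and 45.5% in EGFP+ cells at E11.5, 57.6% and 53.8% at E13.5, then 50.6% and 51.1% at E15.5, so their share was highest at E13.5. In EGFP- cells they made up 19.1% and 27.8%, then 51.5% and 59.6%, then 62.4% and 68.4%. NMDA receptor genes made up 11.3% and 9.73% of the sum in EGFP+ cells at E11.5, 12.4% and 14.6% at E13.5, then 19.7% and 24.7% at E15.5, against 2.75% and 2.29%, then 4.95% and 6.15%, then 13.1% and 14.6% in EGFP- cells. Shares and ratios are descriptions without a test.

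Within the kainate class, Grik2 and Grik3 exchanged places in EGFP+ cells. Grik2 held 76.8% and 81.2% of the kainate FPKM there at E11.5, 38.9% and 24.6% at E13.5, then 8.23% and 9.93% at E15.5. Grik3 held 9.29% and 8.11%, then 57.1% and 73.4%, then 87.5% and 83.9%. In EGFP- cells Grik3 held 72.6% and 73.1% at E11.5, 21.1% and 37.8% at E13.5, then 48.5% and 48.6% at E15.5. Its share was therefore lowest at E11.5 in EGFP+ cells and at E13.5 in EGFP- cells.

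The ratio of Gria2 to Gria1, which bears on the AMPA receptor subunits that could meet Gria2, was 1.31 and 2.96 in EGFP+ cells at E11.5, 1.50 and 1.26 at E13.5, then 0.591 and 0.841 at E15.5. In EGFP- cells it was 2.36 and 7.14, then 1.58 and 1.64, then 0.800 and 1.44. The E15.5 libraries were the lowest of each population, and the populations overlapped at E11.5 and at E15.5. Against Gria1 and Gria3 together, Gria2 was at 1.03 and 2.30 in EGFP+ cells at E11.5 and at 0.395 and 0.580 at E15.5. In EGFP- cells that ratio was 0.939 and 3.38 at E11.5 and 0.656 and 1.14 at E15.5.

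The NMDA receptor genes showed a wide gap in the ratio of Grin2b to Grin2d. It was 2.14 and 3.62 in EGFP+ cells at E11.5, 33.1 and 46.9 at E13.5, then 29.4 and 35.3 at E15.5. In EGFP- cells it was 0.652 and 0.673, then 6.77 and 5.73, then 3.21 and 5.29. The EGFP+ libraries were above the EGFP- libraries at each stage, although Grin2d was near 0.2 FPKM at E13.5, where small differences move the ratio. Adding 0.1 FPKM to each gene changed the mean Grin2b/Grin2d in Ebf2-EGFP+ E13.5 libraries from 40.0 to 27.4. The ratio of Grin1 to the sum of Grin2b and Grin2d ran from 0.691 to 1.38 over the 12 libraries.

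**Figure D5:**
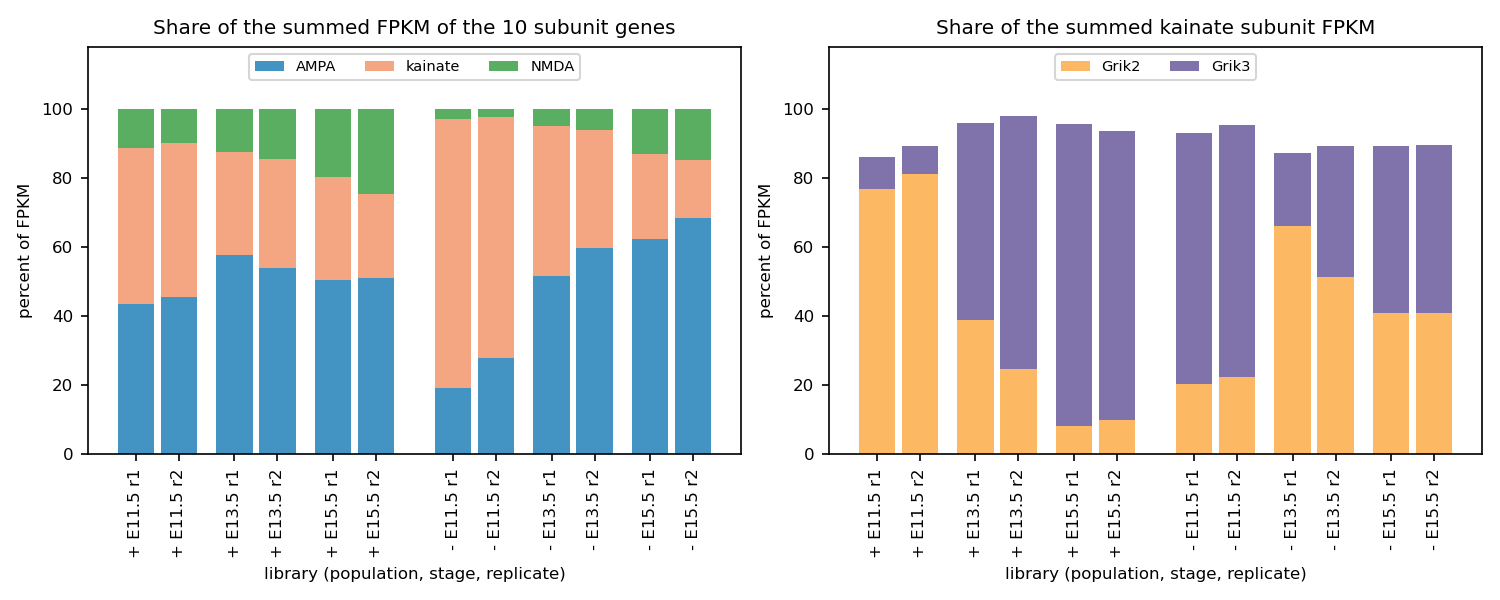
Percent of the summed FPKM of the 10 subunit genes in each receptor class (left) and percent of the summed kainate receptor FPKM held by Grik2 and Grik3 (right) in each library, ordered by population, stage and replicate. In EGFP+ libraries Grik2 held 76.8% and 81.2% of the kainate FPKM at E11.5 and 8.23% and 9.93% at E15.5.

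Genes that act with the receptors were followed as lists. Of 19 auxiliary proteins of AMPA and kainate receptors, 17 were in the table. At E11.5, 11 of these were higher and 1 lower in EGFP+ cells. These counts were 12 and 3 for E13.5 and 10 and 2 for E15.5. Of all 4859 genes, 36.8% were higher and 44.9% lower at E11.5, 32.1% and 43.5% at E13.5, then 25.8% and 31.6% at E15.5. The highest mean over the 12 libraries was that of Cnih2, a cornichon protein that aids export and gating of AMPA receptors, with 111 and 92.9 FPKM in EGFP+ and 30.7 and 28.1 FPKM in EGFP- cells at E11.5. Its libraries did not overlap, and the log2 difference was 1.76 (adjusted p = 1.17e-05). Next by this mean came Cacng7 and Cacng4, transmembrane AMPA receptor regulatory proteins. Cacng7 was at 42.5 and 52.0 against 44.6 and 50.9 FPKM at E11.5 and 113 and 91.7 against 70.2 and 70.3 FPKM at E15.5. Cacng4 was at 64.4 and 61.8 against 50.4 and 45.4 FPKM, then 134 and 109 against 66.3 and 68.2 FPKM. Cacng7 overlapped at E11.5 and both stood higher in EGFP+ libraries at E15.5, with log2 differences of -0.02 (adjusted p = 0.921) and 0.39 (adjusted p = 0.0192) at E11.5 and of 0.53 (adjusted p = 0.0152) and 0.84 (adjusted p = 0.000351) at E15.5.

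Of 32 scaffolds and synaptic partners, 22 were in the table. At E11.5, 17 were higher and 2 lower in EGFP+ cells. These counts were 15 and 2 for E13.5 and 15 and 3 for E15.5, beside the shares of all genes given above. Dlg4, the postsynaptic scaffold PSD-95, had the highest mean over the 12 libraries, with 75.4 and 73.9 FPKM against 21.8 and 24.6 FPKM at E11.5 and 176 and 140 FPKM against 93.2 and 90.2 FPKM at E15.5. It was higher in EGFP+ cells at each stage, by 1.65 (adjusted p = 2.29e-06), 1.24 (adjusted p = 3.14e-05) and 0.77 log2 (adjusted p = 0.00118). Dlgap4, which binds Dlg4, was at 72.1 and 79.7 against 37.4 and 40.9 FPKM at E11.5. Nlgn2, an adhesion protein of inhibitory synapses, was at 58.8 and 59.9 against 27.5 and 30.8 FPKM. Both were higher at E11.5 by 0.94 (adjusted p = 0.000476) and 1.00 (adjusted p = 0.000213) and did not pass at E15.5 (0.11 and 0.22).

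Of 9 genes of glutamate and D-serine supply and uptake, 5 were in the table. At E11.5, 4 of these were higher and 1 lower in EGFP+ cells, and at E13.5 and E15.5 3 were higher and 1 lower, beside the same shares. Slc17a6, the vesicular glutamate transporter VGLUT2, was at 49.3 and 58.0 FPKM in EGFP+ and at 0.622 and 1.15 FPKM in EGFP- cells at E11.5, a log2 difference of 4.87 (adjusted p = 5.66e-08). By E13.5 the populations overlapped, with 19.1 and 13.55 FPKM against 18.4 and 16.9 FPKM (adjusted p = 0.655). Slc17a7, the vesicular transporter VGLUT1, was at 23.3 and 25.9 against 0.197 and 0.244 FPKM at E11.5 and 49.5 and 26.3 against 16.3 and 10.5 FPKM at E15.5. It was higher in EGFP+ cells at all 3 stages, by 4.39, 1.75 and 1.40 log2. Slc1a3, the glutamate transporter of radial glia and astrocytes, was at 0.477 and 0.630 against 13.3 and 12.6 FPKM at E11.5 and 2.71 and 2.68 against 22.9 and 17.4 FPKM at E15.5. It was the gene lower at each stage, by -3.17, -3.13 and -2.50 log2. The lists of other ionotropic subunits (8 genes) and of RNA-editing adenosine deaminases (3 genes) had 0 genes in the table.

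Subunits other than Gria2 were set beside the gene whose log2(FPKM + 1) tracked each most closely over the 12 libraries, among 4454 genes with a mean of at least 1 FPKM. Grin1 ran with Wdr13 and Grin2b with Rnf157, each at a Pearson r of 0.995. Gria1 ran with Inpp5k (r = 0.990) and Gria3 with Bend6 (r = 0.984). Among kainate receptor genes, Grik3 ran with Shc3 (r = 0.968), Grik2 with Eomes (r = 0.930), Grik4 with Ccng1 (r = 0.942) and Grik1 with 2810459M11Rik (r = 0.948). Of these, Grin2d had the loosest companion, Asic2 (r = 0.894). The 12 libraries fall into 6 groups of the same cells, so these values describe shared group patterns and carry no test.

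In the mouse genome (build GRCm38, which is mm10, GENCODE M21), the subunit genes lie on 10 chromosomes. The AMPA receptor genes are at chr11:57011387-57330244 (Gria1, plus strand), chr3:80681450-80802835 (Gria2, minus strand) and chrX:41400854-41678601 (Gria3, plus strand). The kainate receptor genes are at chr16:87895900-88290265 (Grik1, minus strand), chr10:49094833-49788766 (Grik2, minus strand), chr4:125490700-125714173 (Grik3, plus strand) and chr9:42518135-42944493 (Grik4, minus strand). The NMDA receptor genes are at chr2:25291181-25319187 (Grin1), chr6:135713233-136173511 (Grin2b) and chr7:45831883-45878378 (Grin2d), all on the minus strand.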

How the data were processed

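Cortical cells were papain-dissociated, sorted by FACS and sequenced as oligo-dT selected RNA. Per the labels and the study's methods, the authors aligned reads to mm10 with TopHat2 2.0.8b and computed FPKM with Cufflinks 2.2.0, and the deposited FPKM values were used unchanged. The depth of each library is not known from FPKM, and between 32.0% and 51.0% of genes under 0.15 FPKM lay on ratios of whole fragments within a group while the grid covered 4.00% to 5.86% of the range, so fragment counts were not recovered. The study's methods give an average read number over samples, not the depth of each library. The precision at low FPKM in each library is therefore unknown. Columns of the study's own comparisons and a table of noncoding RNAs were not used.

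All 12 libraries, as 6 groups, were fitted by limma 3.58.1 (R 4.3.3) to log2(FPKM + 1), with a variance trend and no covariates, over 4859 genes. Tests were two-sided with Benjamini-Hochberg adjustment over all genes, and 11 contrasts were made. Alternatives changed the pseudocount, scaling, filter, trend, groups fitted, call rule, replicate block and libraries. Same-numbered libraries of the populations share a replicate number in the labels, and their departures from the group mean had a correlation over genes of 0.431 for E11.5, 0.534 for E13.5 and 0.431 for E15.5, so a paired fit was run. The study describes its replicates as different preparations or batches of sorted cells. The fit was tested on simulated data, and the outcome is not used here. The members and lists were chosen with earlier results of these data known. All 10 members were named, and from each list the 3 genes with the highest mean FPKM, with those of marker lists given as sums.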

Additional observations from a re-analysis of the deposited data

Results flagged for a closer look

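The population difference of 6 subunits changed between E11.5 and E13.5, by the interaction test in limma, where 35.2% of all genes changed. On the log2 scale the change was 4.50 for Grik3, 1.84 for Gria3, -1.64 for Grik2, -0.972 for Grik1, -0.880 for Gria1 and -0.588 for Grik4, where a positive value is a move toward Ebf2-EGFP+ cells. Between E13.5 and E15.5 it changed by 0.871 for Grik4 and by -0.727 for Grin2d, where 12.6% of all genes changed. The earlier calls for Grik1, Gria1 and Grik4 and the later call for Grik4 were each lost without some single libraries, as given above. With 2 libraries a group, no library could be tested for standing apart from its group.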

How the results depend on the processing

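Of 601 values called among the subunits under alternatives other than leaving out a library, 544 stayed called in the same direction, 57 were no longer called and 0 changed direction. With each library left out in turn, 294 of 340 stayed called, 46 were no longer called and 0 changed direction. The library left alone in its group was assumed to vary like the other groups.

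A 2-fold minimum gave 4 called subunits at E15.5 between populations in place of 8, 2 from E13.5 to E15.5 in Ebf2-EGFP+ cells in place of 7, 5 from E11.5 to E13.5 in Ebf2-EGFP- cells in place of 9, 6 over the whole span there in place of 10, and 3 and 0 for the changes of the population difference in place of 6 and 2. An adjusted p under 0.01 gave 4 from E13.5 to E15.5 in Ebf2-EGFP+ cells and 3 and 0 for the changes of the population difference. These rules are stricter by construction. For the later change of the population difference, a pseudocount of 0.1 left 1 called and a mean of at least 1 FPKM, which leaves out Grik4 and Grin2d, left 0, with limma. A fixed replicate block called 6 there. The paired fit changed no other call than those printed beside the results. Leaving out 1 library gave 4 to 5 called for the earlier change, 1 to 2 for the later one and 4 to 6 called from E13.5 to E15.5 in Ebf2-EGFP+ cells.

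Sign changes occurred only among values that were not called. With a pseudocount of 0.1 the first change of the population difference was -0.37 for Grin1 and -0.0025 for Grin2b. After rescaling, the population difference was 0.0737 for Grik2 at E13.5 and 0.0182 for Gria2 at E15.5, and the change over the whole span in Ebf2-EGFP+ cells was 0.13 for Grik4 and 0.0583 for Grin2d. With 1 library left out, the population difference ran from -0.18 to 0.0117 for Grik1 at E11.5, from -0.0171 to 0.23 for Grik4 and -0.0780 to 0.0895 for Grin2d at E13.5, and from -0.63 to 0.26 for Gria2 at E15.5. Its first change ran from -1.24 to 0.22 for Gria2, and its second from -0.12 to 0.36 for Grik1, -0.28 to 0.45 for Grik3 and -0.31 to 0.0696 for Grin1. In Ebf2-EGFP+ cells Grik1 ran from -0.13 to 0.35 in the first step, -0.31 to 0.17 in the second and -0.16 to 0.24 over both, Gria2 from -0.11 to 0.22 and Gria3 from -0.0438 to 0.25 in the second. In Ebf2-EGFP- cells Grin2d ran from -0.13 to 0.0331 in the first step. The cause was not tested.

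Rescaling by the median of ratios moved the median of all genes by 0.16 and 0.14 log2 for the first step and the whole span in Ebf2-EGFP+ cells and by 0.12 and 0.22 in Ebf2-EGFP- cells. For the first step in Ebf2-EGFP+ cells the share of rises among calls went from 37.6% to 48.2%. Adding 0.1 FPKM before ratios moved 6 of 42 group means by more than their SD. Depth per library is unknown, as the study's methods give an average over samples.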
